A study of Homo sapiens with 8 samples.

Results

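NF-kB signalling was read in SW1990 cells, an established human pancreatic adenocarcinoma line, through 40 genes chosen by name: the 5 NF-kB subunits, 6 of their inhibitors and feedback genes, 6 signal adaptors and kinases, 7 CXC and 2 CC chemokines, 8 interleukins and related cytokines including TNF, 3 colony-stimulating factors and 3 further target genes. All 40 were found among the 38637 genes of the RNA-seq table. The table covers 4 groups with 2 libraries each. Vector cells carried the control vector and EBF2-OE cells overexpressed the transcription factor EBF2. The study's methods describe plasmids delivered with Lipofectamine. Vehicle cells received the solvent and GSK-LSD1 cells received GSK-LSD1, an inhibitor of the histone demethylase KDM1A (LSD1), at 2000 µM as labelled. A Western blot of the study used the inhibitor on SW1990 cells at doses far below that label. A figure legend of the study calls the cells of this RNA-seq SW1990-luc, the line labelled with luciferase, which all groups would then share, and the labels name SW1990 alone. The sources used here state neither a treatment time, nor a dose for the RNA-seq other than the label, so that the label's unit could not be checked, nor whether the libraries of a group came from separate cultures. The p-values below therefore measure the spread between these libraries, which may be technical.

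NF-kB is a family of dimeric transcription factors. In the canonical pathway, signals from receptors for TNF, interleukin-1 or microbial products activate the IKK complex, which marks IkB inhibitors for destruction and frees dimers such as RELA with NFKB1. In the non-canonical pathway the kinase MAP3K14 (NIK), which TRAF2, TRAF3, BIRC2 and BIRC3 hold at low levels, triggers processing of NFKB2 and frees its dimers with RELB. The targets include chemokines, cytokines and the pathway's own inhibitors, and in pancreatic cancer the pathway is known for inflammatory signalling and cell survival.

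Promoter sequence is shown first for 5 members that carry large differences below and hold a kB motif there. The factors of this pathway act through such motifs. The base sequences are RefSeq's (GRCh38.p14) and lie before the gene's start, in the direction of the gene. They end where an annotated exon or, for BIRC3, the deposited gene begins. The deposited spans of IL6 and TNFAIP3 start further upstream, so these stretches lie inside them. Capitals mark matches to the NF-kB (kB) consensus motif on either strand, overlapping matches merged. The CXCL1 stretch lies at chr4:73869143-73869392 on the plus strand, CXCL2 at chr4:74099197-74099445 on the minus strand, IL6 at chr7:22726950-22727146, BIRC3 at chr11:102317234-102317372 and TNFAIP3 at chr6:137867009-137867213, the last 3 on the plus strand.
CXCL1: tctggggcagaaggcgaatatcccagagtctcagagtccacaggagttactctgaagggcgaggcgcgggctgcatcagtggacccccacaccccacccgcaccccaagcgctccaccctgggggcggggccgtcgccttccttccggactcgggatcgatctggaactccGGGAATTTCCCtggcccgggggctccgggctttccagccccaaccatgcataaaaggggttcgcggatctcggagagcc
CXCL2: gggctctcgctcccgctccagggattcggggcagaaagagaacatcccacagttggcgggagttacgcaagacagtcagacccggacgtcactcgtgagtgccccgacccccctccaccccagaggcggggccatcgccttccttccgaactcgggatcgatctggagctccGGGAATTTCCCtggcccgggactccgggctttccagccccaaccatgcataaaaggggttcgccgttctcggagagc
IL6: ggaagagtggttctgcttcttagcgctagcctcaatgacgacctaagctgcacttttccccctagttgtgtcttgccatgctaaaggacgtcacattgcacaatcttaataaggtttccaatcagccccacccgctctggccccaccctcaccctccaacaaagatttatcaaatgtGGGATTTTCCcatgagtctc
BIRC3: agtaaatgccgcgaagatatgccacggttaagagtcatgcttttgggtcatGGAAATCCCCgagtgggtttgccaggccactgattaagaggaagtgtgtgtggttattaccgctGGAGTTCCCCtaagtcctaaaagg
TNFAIP3: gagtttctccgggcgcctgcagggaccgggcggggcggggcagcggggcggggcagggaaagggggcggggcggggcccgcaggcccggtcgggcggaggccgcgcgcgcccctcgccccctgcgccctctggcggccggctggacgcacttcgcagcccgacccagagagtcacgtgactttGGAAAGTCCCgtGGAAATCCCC

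Counted back from the RefSeq start, the match began at base -79 in CXCL1, -78 in CXCL2 and -73 in IL6, while BIRC3 had matches from -199 and -135 and TNFAIP3 from -67 and -55. Of the 40 members, 32 had windows of 250 bases in the table (47 windows in all), and 20 of these windows (42.6%) held the motif. Among all 35116 windows of the table the share was 9.96%. The members were chosen by name as parts and targets of this pathway, so this excess is no finding of these data. Matches occurred in 18 members: all 5 inhibitor and feedback genes with a window (NFKBIA, NFKBIB, NFKBIZ, TNFAIP3 and TNIP1), 5 of 6 CXC chemokines, the subunits NFKB1, NFKB2 and REL, BIRC3, TRAF3, CCL20, IL32 and IL6. SOD2, ICAM1, TNFAIP2, IL11 and MAP3K14 had none in their windows, so large differences below occurred with and without the motif. A match describes the letters only and does not show a bound site.

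Library totals ran from 20453362 to 27054876 counts. EBF2 had 28 and 28 counts in Vector against 5818 and 90100 in EBF2-OE, so the 2 overexpressing libraries differed greatly in the dose of the transgene. KDM1A had 6580 and 6338 counts in Vehicle and 4859 and 4876 with GSK-LSD1, which acts on the protein, so the mRNA is no check of the treatment. Of the epithelial markers, KRT8, KRT18 and MUC1 were abundant. EPCAM (at most 20 counts), KRT19 (at most 21) and CDH1 (at most 57) were near absent, which goes against an ordinary ductal epithelial profile. Summed over 7 leukocyte markers, the level was 13.2 to 33.2 TPM (a count scaled by gene length and library total), of which the macrophage and lysosomal marker CD68 made up 10.9 to 30.9 TPM (179 to 405 counts). CSF1R had 34 to 71 counts, and the defining markers PTPRC (at most 9 counts) and CD3E (0) were near absent. The leukocyte sum was higher in Vector and EBF2-OE (24.2 to 33.2 TPM) than in Vehicle and GSK-LSD1 (13.2 to 22.5 TPM), and its part in the results was not tested. The 4 fibroblast markers summed to 48.7 to 64.3 TPM. The 3 endothelial markers summed to 0.503 to 0.798 TPM in Vector and EBF2-OE, 5.02 and 4.88 in Vehicle and 2.63 and 2.79 with GSK-LSD1. Of these, CDH5 had 11 to 20 counts in Vector and EBF2-OE, 172 and 180 in Vehicle and 77 and 80 with GSK-LSD1. The part of this split in the results was not tested. In bulk RNA, fewer expressing cells and less RNA per cell cannot be told apart.

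All 17 subunits, inhibitors, adaptors and kinases could be tested in SW1990, and 11 of the 20 chemokines, interleukins and other ligands. Averaged over the 8 libraries, the highest members were RELA (147 TPM), IL18 (120 TPM) and IL32 (110 TPM). RELA is a transactivating subunit, IL18 an inflammasome-processed cytokine and IL32 a proinflammatory cytokine. They were followed by the adaptor TRAF2 (97.6 TPM), the TNF-inducible gene TNFAIP2 (85.2 TPM) and NFKB2 (67.6 TPM), the precursor of p52. RELA, IL18 and IL32 lay above 97.1%, 96.3% and 95.9% of all genes in the table. At the other end, CXCL6 and CCL20 never exceeded 3 counts in any library. CXCL3, CXCL5, IL1A, IL1B, TNF, CSF2 and CSF3 had at most 8 counts, and with CXCL6 and CCL20 these 9 members were too low to be tested in any comparison. The plot of member levels shows both ends.

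**Figure D1:**
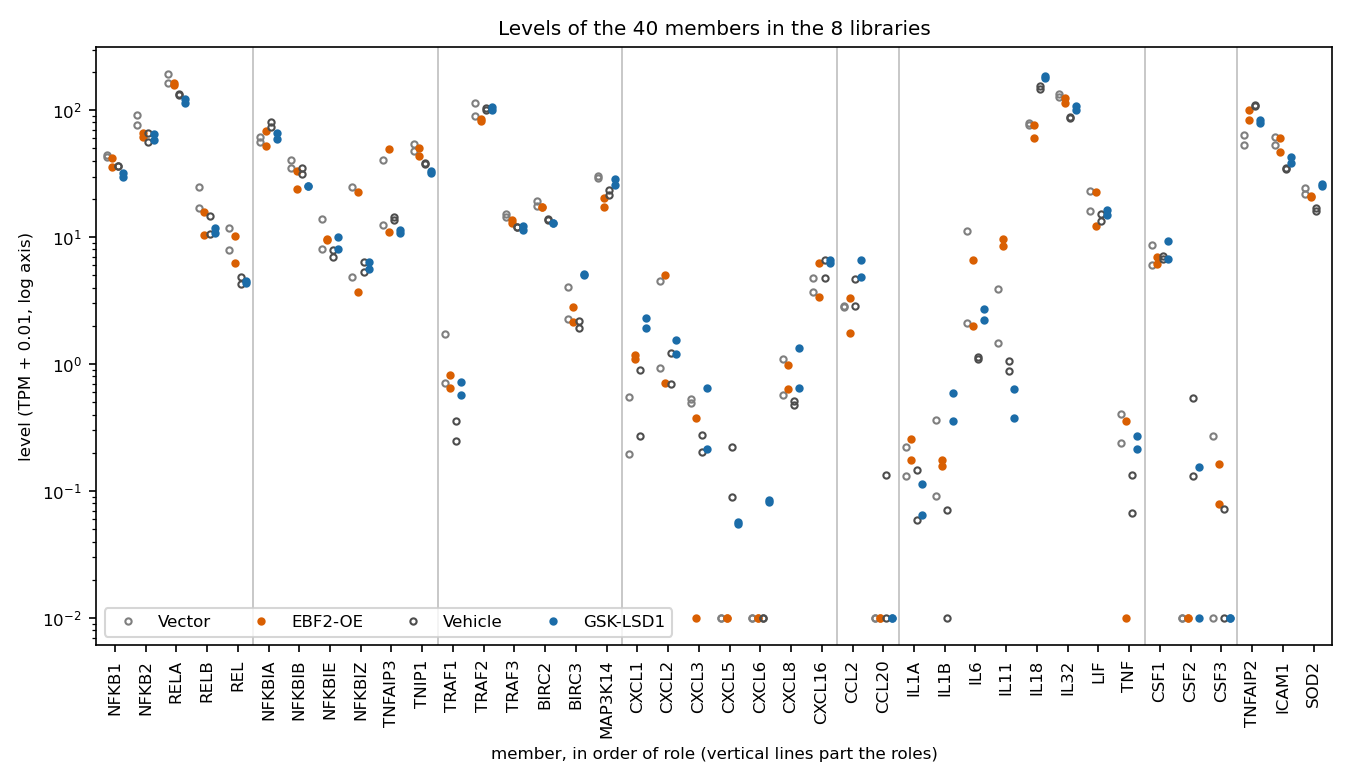
Level of each of the 40 members in each library, in TPM plus 0.01 on a log axis, in order of role. Points are single libraries, colours and filling mark the 4 groups, and points at 0.01 are libraries with no count. RELA, IL18 and IL32 form the top and CXCL5, CXCL6, CCL20, CSF2 and CSF3 the bottom.

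The mean level of the subunits ranged from 6.75 TPM (REL) to 147 TPM (RELA). RELA was at 192 and 163 TPM in Vector, 157 and 164 in EBF2-OE, 131 and 133.5 in Vehicle and 115 and 123 with GSK-LSD1. NFKB1, the precursor of p50, ran from 29.8 to 44.3 TPM over all libraries. REL, the lymphoid-biased subunit, was the lowest of the 5 at 4.26 to 11.8 TPM. RELB, the non-canonical partner of NFKB2, was at 24.8 and 16.8 TPM in Vector and 10.3 and 15.7 in EBF2-OE. It was at 14.6 and 10.5 TPM in Vehicle and 11.8 and 10.7 with GSK-LSD1. Neighbouring members in the order of levels often overlapped in their libraries, as IL18, IL32 and TRAF2 did.

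The first comparison asked what EBF2 overexpression did to these genes. A member was called where its fold change exceeded 1.5 and its adjusted p-value (edgeR, Benjamini-Hochberg over all genes) was under 0.05. By this rule 0 of 31 tested members were higher and 0 were lower, and over all 15560 genes tested the shares called were 0% and 0% as well. EBF2 was thus not called either. DESeq2, run on all 25455 genes with a count and 36 members, called 0 members. It called 0.0236% of those genes higher and 0.00393% lower. With the same fold limit and an unadjusted p-value under 0.05, 2 members were higher (IL11 and TNFAIP2, 0.733% of all genes) and 1 was lower (MAP3K14, 0.219% of all genes). The median log2 fold change was -0.12 over the members and 0.0035 over all genes. A negative value was found for 24 of 31 members and for 7646 of all 15560 genes. The common biological coefficient of variation was 19% here against 5.87% in the GSK-LSD1 comparison.

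IL11, a gp130 cytokine linked to stromal and epithelial repair, was at 3.90 and 1.45 TPM in Vector and at 8.52 and 9.67 TPM in EBF2-OE. The groups did not overlap, and the log2 difference was 1.82 (SE 0.45, n = 2 and 2). Its adjusted p-value was 1.00 in edgeR's main fit and 0.224 in DESeq2, with a range of 2.14e-05 to 1.00 over all alternatives. Without Vector library 2 the log2 difference was 2.66 and without Vector library 3 it was 1.28. The lowest adjusted p-value came from the fit with no low-count filter, on 36 members and 25455 genes. It called 2 members higher (IL11 and TNFAIP2, 0.251% of those genes) and 0 lower (0.0393%). No other fit called either by adjusted p-value. In the other experiment IL11 was at 0.875 and 1.05 TPM in Vehicle and at 0.369 and 0.623 with GSK-LSD1, below both Vector libraries.

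TNFAIP2 was at 64.1 and 52.8 TPM in Vector and at 83.3 and 101 TPM in EBF2-OE, with no overlap and a log2 difference of 0.69 (SE 0.16). MAP3K14, the kinase of the non-canonical pathway, was at 29.2 and 30.4 TPM in Vector and at 17.2 and 20.2 TPM in EBF2-OE. Its libraries lay closer together than the gap between the groups, with a log2 difference of -0.65 (SE 0.14). It was at 21.5 and 23.4 TPM in Vehicle and 25.8 and 28.5 TPM with GSK-LSD1. Neither was called: the adjusted p-values (edgeR, Benjamini-Hochberg) were 1.00 and 1.00. Reads of MAP3K14 and of the antisense gene MAP3K14-AS1 (12 to 77 counts) cannot be told apart where the genes overlap, since the strand setting of the counting is not given in the sources used here.

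NFKB2 was at 92.2 and 75.9 TPM in Vector and at 66.0 and 61.8 TPM in EBF2-OE, a log2 difference of -0.36 (SE 0.13), and at 65.8 and 56.1 TPM in Vehicle and 58.0 and 65.1 TPM with GSK-LSD1, where the groups overlapped. RELB, given above, differed by -0.64 (SE 0.28), a value of -0.98 without EBF2-OE library 3 and -0.36 without Vector library 2. Both libraries of EBF2-OE lay below both of Vector, by normalised counts, for 9 of 31 members, against 10.8% of all genes: NFKB1, NFKB2, RELB, NFKBIB, TRAF2, TRAF3, BIRC2, MAP3K14 and IL32. None of them passed the test. Both libraries lay above both controls for 3 members (12.1% of all genes): CXCL1, IL11 and TNFAIP2.

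CXCL1, a chemokine that draws neutrophils, had 5 and 2 counts in Vector and 10 and 12 in EBF2-OE. The log2 difference of 1.68 (SE 0.71) rested on few reads, and the adjusted p-value from edgeR was 1.00. The remaining tested members lay between -0.69 (TRAF1) and 0.23 (CXCL16) in log2 fold change, and all 6 adaptors and kinases as well as all 5 subunits were negative. None of these was called.

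Of the tested members, 4 differed strongly between the libraries of Vector and of EBF2-OE. For TNFAIP3 (A20), a ubiquitin-editing inhibitor of the pathway, the level was 12.5 TPM in Vector library 2 and 40.8 in Vector library 3, and 11.0 and 49.6 TPM in EBF2-OE libraries 2 and 3. The libraries numbered 3 were high in both groups, and the groups overlapped fully. NFKBIZ, an inducible nuclear IkB, went from 4.82 to 24.6 TPM between Vector libraries 2 and 3 and from 3.69 to 22.7 TPM between those of EBF2-OE. In Vehicle and GSK-LSD1 it stayed between 5.28 and 6.40 TPM. NFKBIZ and CXCL2 are shown in full because of these values.

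IL6, a cytokine that signals to STAT3, had 50 and 309 counts in Vector libraries 2 and 3 and 47 and 172 in those of EBF2-OE. CXCL2, a chemokine close to CXCL1, had 8 and 45 counts in Vector and 6 and 48 in EBF2-OE. It had 13 and 8 counts in Vehicle and 12 and 15 with GSK-LSD1, where the groups overlapped. These 4 members, of 31 tested, were over 2-fold higher in library 3 than in library 2 in both groups, against 1.46% of all genes tested, and 0 members were over 2-fold lower in both, against 0.925%. All 4 have the kB motif in the promoter window, as 18 of the 32 members with a window do. Their differences between EBF2-OE and Vector had standard errors of 0.78 to 1.01 on the log2 scale, so effects of that size were not detectable in this fit. With library number as a block, an alternative fit, the values were -0.20 (SE 0.16) for NFKBIZ and 0.084 (SE 0.15) for TNFAIP3. For IL6 that fit gave -0.46 (SE 0.25) and for CXCL2 0.025 (SE 0.46), and it called 0 members. EBF2 itself was equal in the 2 Vector libraries, at 28 counts, and what the numbers 2 and 3 stand for is not stated.

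The second comparison asked what the KDM1A inhibitor did. With GSK-LSD1 4 of 31 tested members rose: BIRC3, SOD2, IL6 and CXCL1. Over all 16059 genes tested 2.53% rose by the same limits. A call in the lower direction was made for 0 members and 2.04% of all genes by edgeR. With an unadjusted p-value and the same fold limit 5 members were higher, TRAF1 beside the 4 above (3.59% of all genes), and 1 was lower (IL11, 3.18% of all genes). DESeq2 was run on every gene with a count, 25498 genes and 40 members. It called 3 members higher (BIRC3, IL6 and SOD2, 1.11% of those genes) and 0 lower (0.729%). These shares include genes too low to be called, so they are not comparable with those of edgeR. The median log2 fold change of the members was 0.18, against -0.0059 over all genes.

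BIRC3 (cIAP2), a ubiquitin ligase of the TNF receptor complex, was at 1.92 and 2.17 TPM in Vehicle and at 5.05 and 5.14 TPM with GSK-LSD1. Both treated libraries were above every other library of the series, which held 4.01 and 2.25 TPM in Vector and 2.81 and 2.12 TPM in EBF2-OE. The log2 fold change was 1.35 (SE 0.12) and the adjusted p-value 5.07e-05 (edgeR). In 1 fit over all 8 libraries the value stayed at 1.35 but the adjusted p-value was 0.0601, the highest over the alternatives, which began at 6.74e-17. Its relative BIRC2 (cIAP1) was at 13.7 and 13.9 TPM in Vehicle and 13.0 and 13.0 TPM with GSK-LSD1, a log2 difference of -0.055 (SE 0.085).

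SOD2, the mitochondrial superoxide dismutase and a known NF-kB target, was at 16.1 and 17.0 TPM in Vehicle and 25.3 and 26.0 TPM with GSK-LSD1. It was at 22.0 and 24.5 TPM in Vector and 20.8 and 21.1 TPM in EBF2-OE, between the other groups. GSK-LSD1 and Vehicle did not overlap, with a log2 fold change of 0.67 (SE 0.049) and an adjusted p-value of 1.67e-05 (edgeR). SOD2 was the only member called under every alternative that kept the fold limit. Its level in TPM rests on a listed length of 17592 nt. The SOD2 locus overlaps that of the opposite-strand genes WTAP over 29624 nt and ACAT2 over 237 nt. WTAP had a log2 difference of 0.090 (adjusted p-value 0.361), and ACAT2 rose by 0.91 (adjusted p-value 2.14e-06). The part of shared reads in the SOD2 value was not tested.

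IL6 had 32 and 36 counts in Vehicle and 75 and 59 with GSK-LSD1, with both treated libraries higher, a log2 fold change of 1.17 (SE 0.23) and an adjusted p-value of 0.0064 (edgeR). The call was lost without GSK-LSD1 library 1 (adjusted p-value 0.0854) and in 1 fit over all 8 libraries (0.606), where the spread of IL6 in Vector and EBF2-OE enters. Over all alternatives the adjusted p-value ran from 0.00104 to 0.606. The IL6 locus overlaps the opposite-strand gene IL6-AS1 (2 to 15 counts) over 1732 nt. The part of shared reads in the IL6 value was not tested.

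CXCL1 had 3 and 11 counts in Vehicle and 21 and 24 with GSK-LSD1. The treated libraries were the highest of the series, the log2 fold change was 1.87 (SE 0.51) and the adjusted p-value 0.0269 (edgeR). Without Vehicle library 1 the log2 value was 1.29 and without Vehicle library 2 it was 2.97. This call was lost without Vehicle library 1 (0.145), without GSK-LSD1 library 1 (0.134), without GSK-LSD1 library 2 and in 1 fit over all 8 libraries (0.215), within a range of 0.00273 to 0.215 over the alternatives. DESeq2 gave CXCL1 no adjusted p-value because of its low counts. The related genes CXCL1 and CXCL2 shared at most 5.63% of the 50-base windows of their transcripts and 0 windows of 150 bases.

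**Figure D2:**
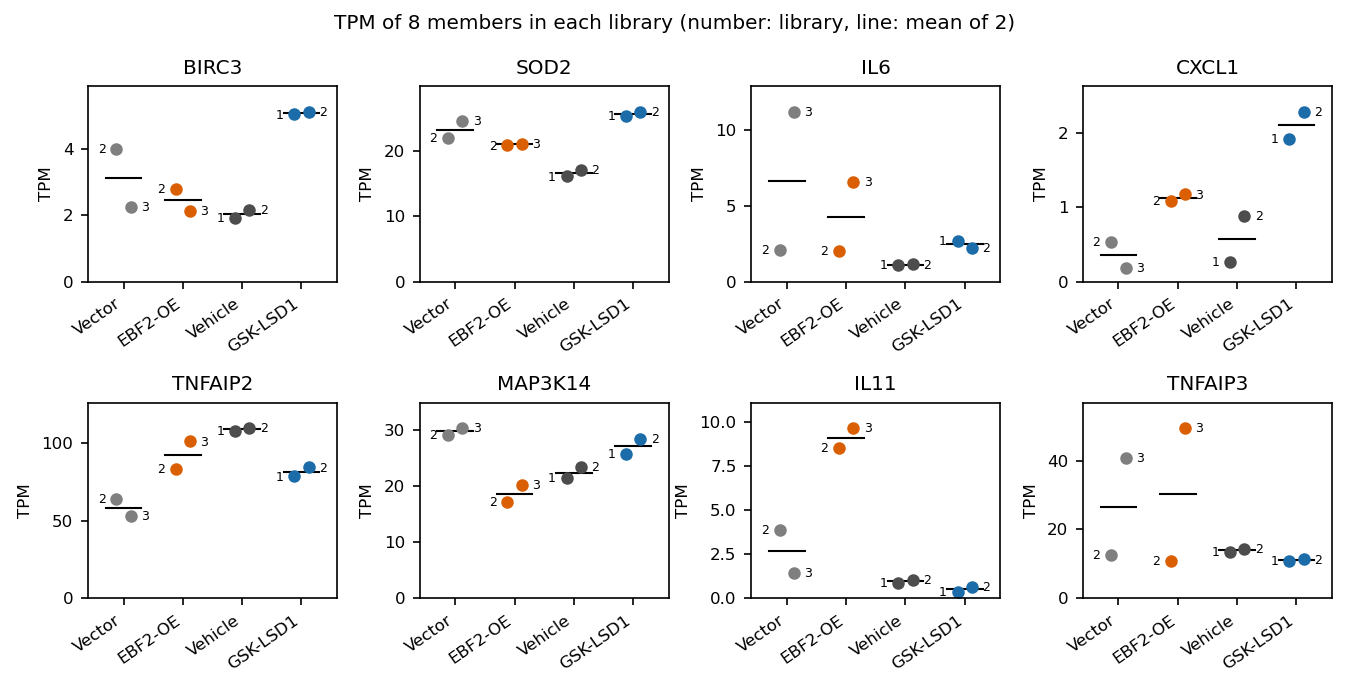
Level in TPM of 8 members in each library, with axes from 0. Numbers are the library numbers of the labels and lines are means of 2. BIRC3, SOD2 and CXCL1 are higher with GSK-LSD1 than with Vehicle in both libraries, IL11 and TNFAIP2 are higher and MAP3K14 lower in EBF2-OE than in Vector, and TNFAIP3 and IL6 are high in the libraries numbered 3.

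Smaller differences went in both directions. With the adjusted p-value alone, at any fold, 8 of 31 members were higher with GSK-LSD1 (9.86% of all genes) and 6 were lower (8.87% of all genes). The higher members were BIRC3, CXCL1, IL6 and SOD2 with MAP3K14, IL18, IL32 and the adhesion molecule ICAM1, whose log2 differences lay between 0.26 and 0.31. The lower ones were NFKB1, NFKBIA, NFKBIB, TNFAIP3, TNIP1 and TNFAIP2, between -0.39 and -0.19. These 6 include 4 of the 6 inhibitor and feedback genes: the IkB proteins NFKBIA and NFKBIB, TNFAIP3, and its partner TNIP1. DESeq2 passed NFKBIB and TNFAIP3 but not NFKBIA (adjusted p-value 0.0990) or TNIP1 (0.0804). In 1 fit over all 8 libraries only SOD2 of the 14 members passed, and the 4 inhibitors stood at adjusted p-values of 0.375 (NFKBIB) to 0.904 (TNFAIP3). Each of the 4 was also lost when 1 library was left out, where the highest adjusted p-values (edgeR) were 0.237 for NFKBIA, 0.105 for NFKBIB, 0.0813 for TNFAIP3 and 0.160 for TNIP1.

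TNFAIP2 was at 108 and 110 TPM in Vehicle and at 78.5 and 84.3 TPM with GSK-LSD1, a log2 difference of -0.39 (SE 0.050, adjusted p-value 5.56e-04 by edgeR). TNFAIP3 was at 13.6 and 14.4 TPM in Vehicle and at 10.7 and 11.3 TPM with GSK-LSD1, a log2 difference of -0.31 (SE 0.066, adjusted p-value 0.0086). IL18 went the other way, from 155 and 147 TPM to 179 and 184.5 TPM, a log2 difference of 0.30 (SE 0.061, adjusted p-value 0.0067). In each the groups did not overlap. In 1 fit over all 8 libraries the adjusted p-values of TNFAIP2 and IL18 were 0.203 and 0.324. TNFAIP3 overlaps the opposite-strand gene WAKMAR2 (66 to 193 counts) over 1917 nt. WAKMAR2 had a log2 difference of -0.37 with GSK-LSD1 (adjusted p-value 0.104 by edgeR), and the part of shared reads was not tested.

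By normalised counts, both GSK-LSD1 libraries were above both Vehicle libraries for 14 of 31 members (30% of all genes) and below them for 9 (30.2% of all genes). The lower count is thus near the share of all genes. The chemokines and cytokines that could be tested mostly had positive values: all 4 CXC chemokines and CCL2, and 4 of 5 interleukins and related cytokines. IL11 was the exception at -0.92 (SE 0.41). Over all 16059 genes tested 7872 had positive values. For CXCL2 and CXCL16 the libraries of GSK-LSD1 and Vehicle overlapped. CXCL8 (1.04, SE 0.48) and CCL2 (0.66, SE 0.32) did not pass the test, with 10 and 10 against 12 and 24 counts for CXCL8 and 33 and 22 against 33 and 43 for CCL2. TRAF1, a target and adaptor of the pathway, had 15 and 11 against 23 and 28 counts and an adjusted p-value of 0.0583 (edgeR). It was called with no low-count filter and with at least 10 counts in every library.

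**Figure D3:**
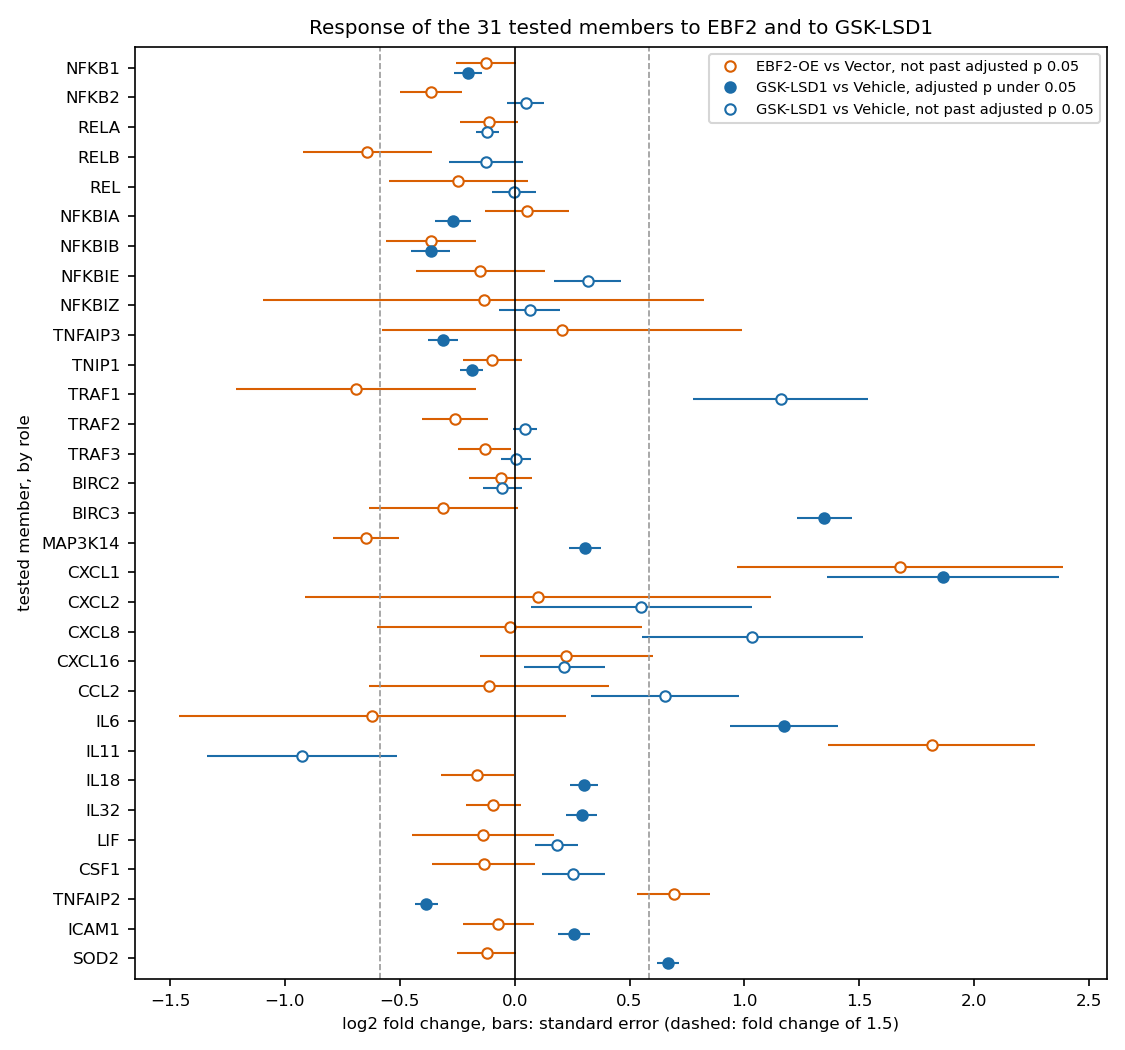
Log2 fold change of the 31 tested members for EBF2-OE against Vector (orange) and GSK-LSD1 against Vehicle (blue), with bars of 1 standard error and dashed lines at a fold change of 1.5. Filled points passed an adjusted p-value of 0.05 (edgeR): 0 for EBF2-OE and 14 for GSK-LSD1, of which BIRC3, CXCL1, IL6 and SOD2 lie beyond the upper dashed line.

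The difference of both responses, EBF2-OE over Vector minus GSK-LSD1 over Vehicle, was tested in 1 fit over all 8 libraries. By edgeR 0 members were called higher and 0 lower, as were 0% and 0% of 16558 genes. With an unadjusted p-value 2 members had a higher response to EBF2 (IL11 and TNFAIP2, 2.31% of all genes) and 4 a lower one (TRAF1, BIRC3, MAP3K14 and SOD2, 2.02% of all genes). DESeq2 was run on 40 members and 27234 genes with a count. It called IL11 and TNFAIP2 as higher (0.14% of those genes) and BIRC3, MAP3K14 and SOD2 as lower (0.206%). In 4 of the 31 members, against 5.47% of all genes, the libraries were apart in opposite directions in both comparisons: MAP3K14, IL11, IL32 and TNFAIP2. For BIRC3 the log2 difference of the responses was -1.67 (SE 0.36), with an adjusted p-value of 0.237 by edgeR and 0.0091 by DESeq2, in a range of 1.32e-05 to 1.00 over the alternatives. For SOD2 it was -0.80 (SE 0.13), with 0.105 by edgeR and 0.0016 by DESeq2, in a range of 2.58e-04 to 0.716.

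The controls of both experiments differed over all genes as well as in some members. Vector against Vehicle called 3 of 30 tested members higher (10%: REL, TRAF1 and ICAM1), against 5.79% of all genes. It called 2 lower (6.67%: IL18 and TNFAIP2), against 10.2% of all genes. These shares rest on 3 and 2 members, so they are not read as a difference from all genes. The plasmid, the solvent and the experiment cannot be told apart in this comparison, which also shares its libraries with the other comparisons. The median log2 difference of the members was 0.44, against 0.0023 over all genes.

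IL18 was at 76.9 and 78.8 TPM in Vector and 155 and 147 TPM in Vehicle, and it was lower in Vector by a log2 difference of -0.97 (SE 0.096, adjusted p-value 0.0078 by edgeR). The EBF2-OE libraries, at 75.8 and 60.7 TPM, were also below both Vehicle libraries. TNFAIP2, with the levels given above, differed by -0.92 (SE 0.096, adjusted p-value 0.0080). Levels of TNFAIP2 in EBF2-OE (83.3 and 101 TPM) thus stood between those of Vector and Vehicle.

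REL was at 7.91 and 11.8 TPM in Vector and 4.26 and 4.82 TPM in Vehicle, a log2 difference of 1.11 (SE 0.22, adjusted p-value 0.0218 by edgeR). In EBF2-OE it was at 6.19 and 10.2 TPM and with GSK-LSD1 at 4.47 and 4.37 TPM. TRAF1 had 60 and 28 counts in Vector against 15 and 11 in Vehicle, 4.01-fold higher (SE 0.54 on the log2 scale, adjusted p-value 0.0459), and 22 and 31 counts in EBF2-OE. Without Vector library 2 its log2 difference was 1.26 and the call was lost (adjusted p-value 0.0627, in a range of 0.00113 to 0.232 over the alternatives), and without Vector library 3 it was 2.51. ICAM1 was at 61.3 and 53.1 TPM in Vector and 34.4 and 35.1 TPM in Vehicle, a log2 difference of 0.70 (SE 0.097, adjusted p-value 0.0111). It was at 59.9 and 46.8 TPM in EBF2-OE and at 38.5 and 42.6 TPM with GSK-LSD1.

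Below the fold limit, IL32 was at 133 and 127 TPM in Vector and 86.6 and 87.9 TPM in Vehicle (log2 difference 0.56, SE 0.084, adjusted p-value 0.0127 by edgeR). It was at 125 and 114 TPM in EBF2-OE and 107.5 and 101 TPM with GSK-LSD1. TNIP1 was at 53.9 and 48.0 TPM in Vector and 37.7 and 38.6 TPM in Vehicle (0.40, SE 0.077, adjusted p-value 0.0211). It was at 49.97 and 43.35 TPM in EBF2-OE and 32.1 and 33.4 TPM with GSK-LSD1. TRAF2 did not differ detectably at 114 and 90.1 against 103.5 and 101 TPM (log2 difference -0.025, SE 0.11), and stood at 81.4 and 85.0 TPM in EBF2-OE and 99.4 and 106.6 TPM with GSK-LSD1. Without Vehicle library 1 this comparison called 0 members and without Vehicle library 2 only IL18.

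Beyond the members, 77 further genes of the pathway were listed by role, from receptors to targets. For EBF2-OE against Vector 0 of 58 tested were called by edgeR, as were 0% of all genes. Negative values were found for 41 of the 58 and for 7646 of all 15560 genes. With GSK-LSD1 2 of 57 were higher and 2 lower, beside the 2.53% and 2.04% of all genes. CFB, complement factor B and a target of the pathway, went from 680 and 708 counts to 1597 and 1740 (log2 fold change 1.46, SE 0.074, adjusted p-value 1.38e-06), and IL1RAP, the shared subunit of the interleukin-1 receptor, rose by 0.61 (SE 0.13, adjusted p-value 0.0084). BCL3, a nuclear IkB, fell by 0.60 (SE 0.068, adjusted p-value 2.50e-04 by edgeR). LCN2, lipocalin 2 and also listed as a target, fell by 0.89 (SE 0.21, adjusted p-value 0.0135 by edgeR). Of the 8 genes tested in that list of targets, 2 had positive and 6 had negative log2 values. None of the 11 tested members of the kinase complexes, which include the IKK subunits CHUK, IKBKB and IKBKG, was called in either comparison. With shares of all genes of 0% for EBF2-OE and 2.53% and 2.04% for GSK-LSD1, 0 of 11 is near those shares.

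Vector against Vehicle called 6 of these 58 genes higher and 5 lower, beside 5.79% and 10.2% of all genes, and the 6 with the smallest p-values are given. OSMR (1.01, SE 0.10) and IL6ST (0.70, SE 0.078), subunits of receptors for gp130 cytokines, were higher on the log2 scale. LCN2 (-2.78, SE 0.29), complement C3 (-1.38, SE 0.16) and the TNF receptor adaptor TRADD (-1.33, SE 0.20) were lower. IRAK1, an interleukin-1 receptor kinase, was higher by 0.59 (SE 0.084).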

How the data were processed

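The data were 8 RNA-seq libraries from SW1990 cells. The authors selected poly(A) RNA, sequenced it with paired ends, aligned the reads to hg38 with HISAT2 and counted them per gene with HTSeq, whose strand setting is not given in the sources used here. They deposited raw counts and TPM for 38637 genes, and the TPM equalled the count over the listed length, rescaled. The test was edgeR 4.0.16 under R 4.3.3 (TMM, filterByExpr with a minimum count of 10, quasi-likelihood test, two-sided, Benjamini-Hochberg over all genes tested), each comparison on its own 4 libraries and the difference of responses on all 8. A call needed a fold change above 1.5 and an adjusted p-value under 0.05. Standard errors came from the test statistic. TPM served for levels, with coordinates as deposited (hg38). Alternatives included DESeq2 1.42.0. The scripts were tested on simulated data. Libraries of a group differed by more than sampling noise (chi-square per degree of freedom at least 5.71).

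The members and lists were chosen with earlier results of these data known. Values in every library are given for members called in a comparison, the 6 tested with the smallest p-values in each comparison, and the 6 with the highest level. Members at no more than 3 counts are only named, and of the other pathway genes up to 6 called ones per comparison are named, by smallest p-value. NFKBIZ and CXCL2 were added after their values were seen, as were further values of single members. No correction for the depth or the EBF2 level was made.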

Additional observations from a re-analysis of the deposited data

Results flagged for a closer look

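For 4 members both EBF2-OE libraries lay on one side of both Vector libraries while both GSK-LSD1 libraries lay on the opposite side of both Vehicle libraries, an order that 5.47% of all genes showed. They were picked for that order. The difference of the responses was tested with edgeR over all 8 libraries, and the adjusted p-values passed for none of them. For TNFAIP2 the log2 difference of the responses was 1.07 (SE 0.16), with an adjusted p-value of 0.104 by edgeR and 2.03e-05 by DESeq2. For MAP3K14 it was -0.97 (SE 0.16), with adjusted p-values of 0.105 and 0.0016. For IL11 it was 2.73 (SE 0.66), with adjusted p-values of 0.301 and 0.0254 on low counts. For IL32 it was -0.39 (SE 0.13), with adjusted p-values of 0.530 and 0.813.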

How the results depend on the processing

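Each choice was changed alone. The log2 differences of the members called, or among the 6 with the smallest p-values of a group comparison, kept their sign throughout. Genes called for EBF2-OE numbered 0, with DESeq2 7, with no low-count filter 74, in 1 fit over all 8 libraries 2, with unadjusted p-values 148 and, leaving out a library, 1 to 3. Members called numbered 3 with unadjusted p-values and 2 with no filter. With the replicate block 5 genes and 0 members were called. For GSK-LSD1 (734 genes, 4 members) DESeq2 called 470 genes and 3 members, 1 fit over all 8 libraries 100 and 1, no fold limit 3007 and 14, and leaving out a library 439 to 1007 genes and 2 to 4 members. For Vector against Vehicle (2558 genes, 5 members) no fold limit gave 4294 genes and 11 members, unadjusted p-values 8 members, no filter 10 members, and leaving out a library 12 to 4259 genes and 0 to 10 members. For the difference of responses unadjusted p-values gave 718 genes and 6 members, DESeq2 94 and 5, no filter 369 and 6, and leaving out a library 0 to 71 genes and 0 to 1 members. The cause of these shifts was not tested, apart from fewer libraries, the dropped limit or filter.

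Leaving out a library leaves 1 in a group, which is then assumed to vary like the others. Same-numbered Vector and EBF2-OE libraries deviated together (correlation over genes 0.347) and those of Vehicle and GSK-LSD1 did not (-0.0455). With 2 pairs a group, the numbers were not taken as pairs, and with the replicate block the GSK-LSD1 comparison called 763 genes and the same 4 members. Low counts limit the values of CXCL1, TRAF1, IL11 and CXCL8 and left 9 members untested.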
